A study of Oryctolagus cuniculus with 4 samples.

Results

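The cells described here were fibroblasts of the rabbit bladder mucosa that carried transcripts of SFRP2, PCOLCE2, MFAP5 and EFEMP1. They were selected on measured values: a cell had to hold at least 0.5% of its UMIs in DCN and LUM, no UMI of PTPRC or PECAM1, at least 2 of those 4 genes, and more of them than of 3 other sets of 4 genes (WIF1, HHIP, PTPRQ and ADAM23, then TCF21, EDIL3, BCHE and FAM162B, then APOD, CP, HSD11B1 and CPB1). A UMI is a barcode that marks a single captured RNA molecule. The rule found 3590 cells among 7580 DCN LUM cells and among 21945 cells kept in all. The injury samples held 1235 (Injury_1) and 1305 (Injury_2) of them and the normal samples 295 (Normal_1) and 755 (Normal_2).

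Bladder mucosa came from adult New Zealand rabbits, with 2 normal samples and 2 injury samples taken on day 10 after a piece of mucosa had been cut from the posterior wall, a stage at which new urothelium had just closed the wound. The labels name the tissue as urothelium, and the DCN LUM cells show that the underlying stroma was taken with it. Dissociated cells were captured with droplets and sequenced from the 3' end of the transcript, and the study calls the 2 samples of a condition biological replicates. Each sample is a piece of mucosa that was cut up and digested with collagenase, and the labels name no further treatment or allele.

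Adventitial fibroblasts lie around vessels and along the deeper, collagen-rich layers of many organs. They are known for CD34, for fibrillar collagens and for proteins of the microfibril, the scaffold of elastic fibres, and are widely regarded as a reserve from which other fibroblasts can arise. SFRP2 is a secreted WNT-binding protein, PCOLCE2 enhances the trimming of procollagen, MFAP5 is a microfibril glycoprotein and EFEMP1 (fibulin 3) is a basement membrane and elastic fibre protein.

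Cells of this type had a median of 8229 and 9040 UMIs in the injury samples and of 5414 and 7714 in the normal ones, and Normal_1 had both the lowest depth and the fewest cells. Between 8 and 13 cell barcodes were shared by any 2 libraries, and in 1 case both cells with the barcode were of this type. Summed over each marker list, urothelial genes came to 48.3 to 124 CPM (UMI counts scaled to the same library total in each sample), immune genes to 13.9 to 69.3 CPM and endothelial genes to 16.8 to 41.0 CPM. In all cells outside the DCN LUM cells these lists summed to 588 to 2021, 861 to 3778 and 1409 to 1901 CPM. The glial list had a UMI in 24.1% to 36.4% of these cells, against 2.44% to 7.89% of the cells outside the DCN LUM cells and 23.4% to 41.1% of the other DCN LUM cells. The adipocyte list, to which LPL belongs, summed to 342 and 169 CPM in the injury samples and 1436 and 1008 CPM in the normal ones, against 215 to 386 CPM outside the DCN LUM cells. In the cells of this type LPL made up nearly all of that sum.

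The genes of the rule describe the cells and were not tested. An SFRP2 UMI was found in 98.0% to 99.2% of the cells of the 4 samples, PCOLCE2 in 87.5% to 98.5%, MFAP5 in 78.6% to 90.7% and EFEMP1 in 55.2% to 84.5%. All 4 genes were found together in 51.7% and 50.6% of the cells in the injury samples and in 47.1% and 68.7% in the normal samples. Cells just inside the rule, with 2 of the 4 genes, made up 9.23%, 10.7%, 13.6% and 3.05%. Cells that led the other sets by 1 gene made up 31.8% and 24.4% in the injury samples and 48.8% and 40.7% in the normal ones. Just outside it were DCN LUM cells in which another set had as many detected genes, 214, 197, 164 and 288 of them in the same order, and 5, 5, 0 and 1 cells that had a single gene of the 4 and no other set. The level of SFRP2 was 4829 CPM in Injury_1 and 3376 CPM in Injury_2, against 1155 CPM in Normal_1 and 1568 CPM in Normal_2. The levels of PCOLCE2 (684 and 696 CPM in the injury samples, 456 and 773 CPM in the normal ones) and MFAP5 (345 and 672 CPM, then 363 and 351 CPM) overlapped between conditions. EFEMP1 stood at 226 and 399 CPM in injury and 325 and 568 CPM in normal samples.

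**Figure D1:**
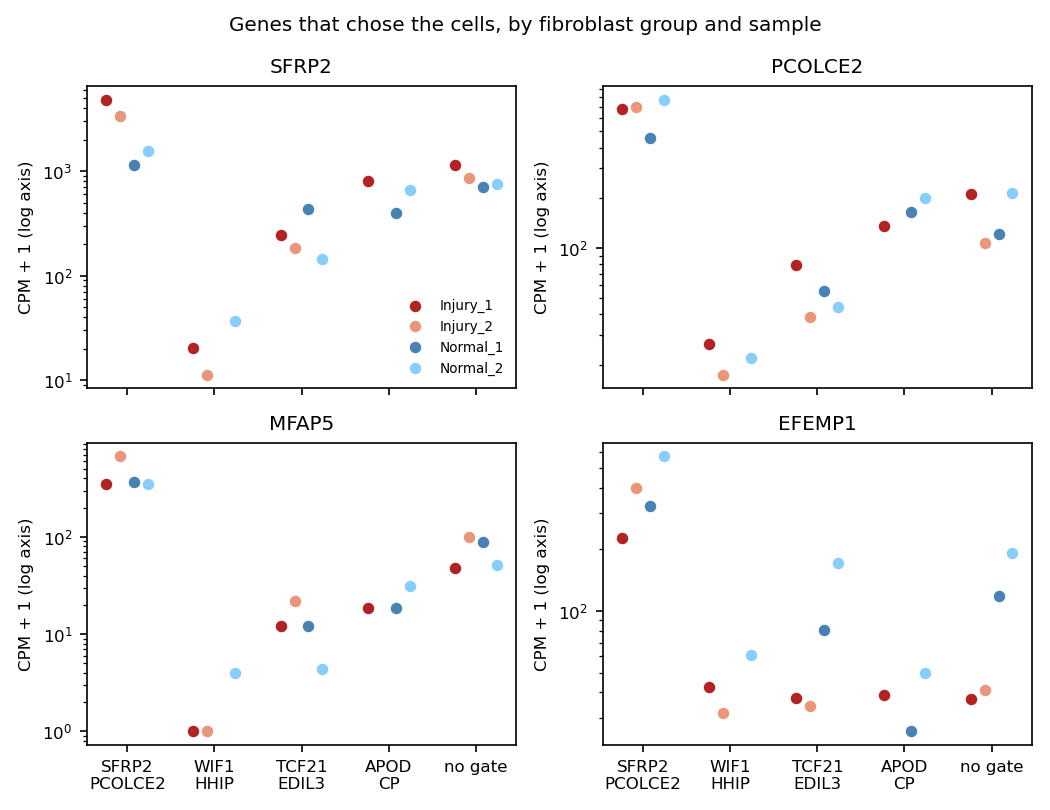
Level of the 4 genes that chose the cells, in CPM plus 1 on a log axis, for each fibroblast group and sample with at least 20 cells (red Injury_1, salmon Injury_2, dark blue Normal_1, light blue Normal_2), where "no gate" marks DCN LUM cells of none of the groups. SFRP2 reached 4829 CPM in Injury_1 and 1155 CPM in Normal_1 within the group that the rule chose.

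The label was compared with genes that the rule did not use. CD34, a surface sialomucin of adventitial fibroblasts and vessel lining, was detected in 71.8% and 91.0% of the injury cells and 73.2% and 85.4% of the normal cells, against 27.2%, 36.5%, 39.0% and 48.7% of the other DCN LUM cells. After each cell had been thinned to 2000 UMIs these shares were 32.4%, 53.6%, 40.1% and 46.6% against 9.52%, 16.6%, 18.5% and 20.8%, and no PTPRC-positive sample went above 3.06%. DPT (dermatopontin) was found in at least 99.2% of the cells but also in 85.3% to 97.3% of the other DCN LUM cells, so it did not set them apart. Several defining genes of this cell type, such as PI16, CLEC3B, DPP4 and CD248, carried no symbol in the gene table and were not read.

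The cells made up 61.4% of the DCN LUM cells of Injury_1 (95% exact Clopper-Pearson interval 59.2% to 63.5%) and 54.9% of Injury_2 (52.9% to 56.9%), against 31.25% in Normal_1 (interval 28.3% to 34.3%) and 33.6% in Normal_2 (interval 31.6% to 35.6%). The ranges did not overlap, and the means were 58.2 ± 4.59% and 32.4 ± 1.64% (SD, n = 2), a difference of 25.8 percentage points. Among all cells kept the share was 20.3% and 23.6% in injury and 6.85% and 12.5% in normal samples, a difference of 12.3 points. For groups of this size the smallest two-sided p of the exact permutation test is 0.33, and both comparisons gave it.

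The share depends on how the cells were chosen, and several genes of the rule differed between conditions. SFRP2, a gene of the rule, stood higher in both injury samples. Of the 12 genes that can take a cell out of the rule, APOD, FAM162B, BCHE, HSD11B1, HHIP, PTPRQ and WIF1 stood lower in both. WIF1 rested on 3 and 13 UMIs in the injury samples and 2 and 11 in the normal ones. CPB1 stood higher in both, at 33.8 and 5.44 CPM against 0.604 and 0.848 CPM. APOD stood at 2098 and 914 CPM against 7981 and 3829 CPM and FAM162B at 9.33 and 11.8 CPM against 114 and 90.7 CPM. Without the condition on the other 3 sets, the share of DCN LUM cells was 72.4 ± 6.07% in injury and 58.6 ± 1.29% in normal samples, which brought the difference down to 13.8 points. With SFRP2 left out of the rule, a variant added after the data had been seen, the difference was 23.5 points, and with cells thinned to 2000 UMIs it was 20.6 points. The interval of each sample covers counting error only, and the exact permutation p was 0.33 in each of these.

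**Figure D2:**
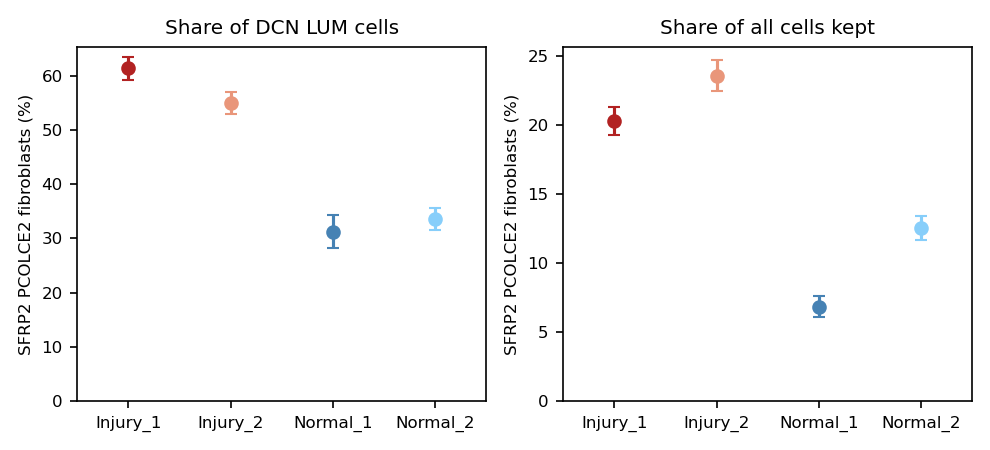
Share of SFRP2 PCOLCE2 fibroblasts in percent of DCN LUM cells (left) and of all cells kept (right), 1 point per sample with its 95% exact interval. Both injury samples lie above both normal samples, at 61.4% and 54.9% against 31.25% and 33.6% of DCN LUM cells.

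Which genes distinguished these cells from the other fibroblasts was asked within samples, against 3 groups chosen by the same kind of rule: WIF1 HHIP fibroblasts (140 cells), TCF21 EDIL3 fibroblasts (2064 cells) and APOD CP fibroblasts (183 cells). UMIs were summed per sample and group and tested with edgeR's quasi-likelihood test with the sample as a block, and the genes of the rule were left out of all counts. Of 6120 genes, 72 were higher than in all 3 other groups (1.18%) and 26 were lower than in all 3 (0.425%). Taken singly, 10.8% of genes were higher and 9.22% lower than in WIF1 HHIP cells, 8.59% higher and 9.22% lower than in TCF21 EDIL3 cells, and 1.45% higher and 0.866% lower than in APOD CP cells. The APOD CP sums held between 48 and 65 cells. Sums of fewer than 20 cells, WIF1 HHIP cells of Normal_1 and APOD CP cells of Injury_2, were left out of the fit.

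ITGBL1, a secreted protein with integrin-like repeats, was the gene with the largest smallest difference. It stood at 268 and 288 CPM in the injury samples and 127 and 137 CPM in the normal ones, with a mean of 205 CPM against 0.684, 6.43 and 8.60 CPM in the WIF1 HHIP, TCF21 EDIL3 and APOD CP cells. Its log2 fold change was 8.31 ± 0.55 (SE, adjusted p = 2.7e-08), 4.96 ± 0.22 (6.1e-10) and 4.41 ± 0.41 (1.1e-05) against the 3 groups, by edgeR with Benjamini-Hochberg adjustment. No sample of any other group reached the lowest sample of these cells. LVRN, a membrane aminopeptidase, was next at 293, 407, 225 and 404 CPM, with a mean of 332 CPM against 1.75, 37.5 and 21.0 CPM. An ITGBL1 UMI was found in 26.8% to 67.0% of the cells and a LVRN UMI in 59.0% to 80.4%, against at most 8.12% and 23.8% of the other DCN LUM cells.

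Microfibril and elastic fibre genes, the scaffold that MFAP5 belongs to, moved in both directions. FBN1 (fibrillin 1, the core of the microfibril) stood at 878 and 1479 CPM in injury and 567 and 707 CPM in normal samples, and was higher than in all 3 groups by 1.56 to 2.83 on the log2 scale. FBLN2 (fibulin 2) at a mean of 55.0 CPM and ADAMTSL4, a fibrillin-binding protein, were also higher than in all 3. These were 3 of the 9 members tested, against 1.18% of all genes. Of the same list, 3 members were higher and 4 lower than in the TCF21 EDIL3 cells (8.59% and 9.22% of all genes), LOX, the collagen and elastin cross-linking enzyme, among them with a log2 difference of -0.92. EMILIN2, a related elastin-associated glycoprotein counted in the adventitial list, was higher than in all 3, at 313, 408, 227 and 319 CPM and a log2 difference of 1.63 to 3.96.

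The fibrillar collagens, which bear the tension of connective tissue, were higher. Of 6 tested, COL1A1, COL1A2, COL3A1 and COL5A2 passed against all 3 groups, against 1.18% of all genes. COL1A2 stood at 35471 and 50229 CPM in injury and 28655 and 39803 CPM in normal samples and was higher by 1.11 to 1.44 on the log2 scale, and COL3A1 by 1.00 to 1.55. The medians of the list were 0.99, 0.84 and 0.95 against the 3 groups, where the medians of all genes tested were 0.05, 0.00 and 0.05. The other collagens went differently. COL12A1, which coats fibril surfaces, had a mean of 933 CPM in WIF1 HHIP and 506 CPM in TCF21 EDIL3 cells and stood at 39.6 to 64.9 CPM here, with log2 differences of -3.62 and -3.01, which passed, and of -1.09 against APOD CP cells, which did not (adjusted p = 0.0592). COL8A1 was lower against the same 2 groups, and COL23A1 against all 3. Among the small leucine-rich proteoglycans, the family of DCN and LUM, 0 of 8 passed against all 3 groups, while ECM2 and PODN were higher against the first 2.

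Other genes raised against all 3 groups fall into several roles. Among the universal adventitial genes 4 of 10 tested passed (1.18% of all genes): CD34, EMILIN2, the IGF-binding protein IGFBP6 and the guidance ligand SEMA3C. IGFBP6 stood at 5406, 9639, 7844 and 13407 CPM. SEMA3C stood at 536 and 813 CPM in injury and 286 and 435 CPM in normal samples and was higher by 1.69 to 2.59 on the log2 scale. S100A4, a calcium-binding protein of motile mesenchymal cells, had 4050, 5018, 5246 and 6835 CPM in the 4 samples. Its log2 differences were 4.68, 2.45 and 2.79. It is also an immune gene, found in 72.4% to 83.9% of PTPRC-positive cells.

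Signalling and enzyme genes were part of the same set. IL34, a ligand of the macrophage colony-stimulating factor receptor, was higher by 2.24 to 2.47, at 35.5 and 53.1 CPM in injury and 18.1 and 19.3 CPM in normal samples. HPGD, which degrades prostaglandins, had a mean of 44.9 CPM against 2.06, 6.92 and 4.09 CPM. TIMP3, the matrix-bound inhibitor of metalloproteases, and ADAMTS5, an aggrecanase, were the 2 of 14 metalloprotease genes that passed (1.18% of all genes). TIMP3 stood at 1878, 3002, 1783 and 3002 CPM and was higher by 1.40 to 1.84. SMAD7 and SKIL, both brakes on TGF-beta signalling, and FSTL1 were the 3 of 24 TGF-beta and BMP genes that were higher, by 0.68 to 1.12 (1.18% of all genes). BMP2, a ligand of the same list, was lower than in all 3 groups, at 29.0, 15.1, 15.1 and 31.9 CPM and with log2 differences of -2.44, -1.82 and -1.93 (0.425% of all genes). The remaining named genes, CADM3, LRRC17, PRRG4, ITIH5 and CILP, were higher by at least 1.59 against every group, and CILP, a matrix protein of cartilage and scar, rested on 28.7 CPM with 3.02 and 8.31 CPM in the normal samples.

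**Figure D3:**
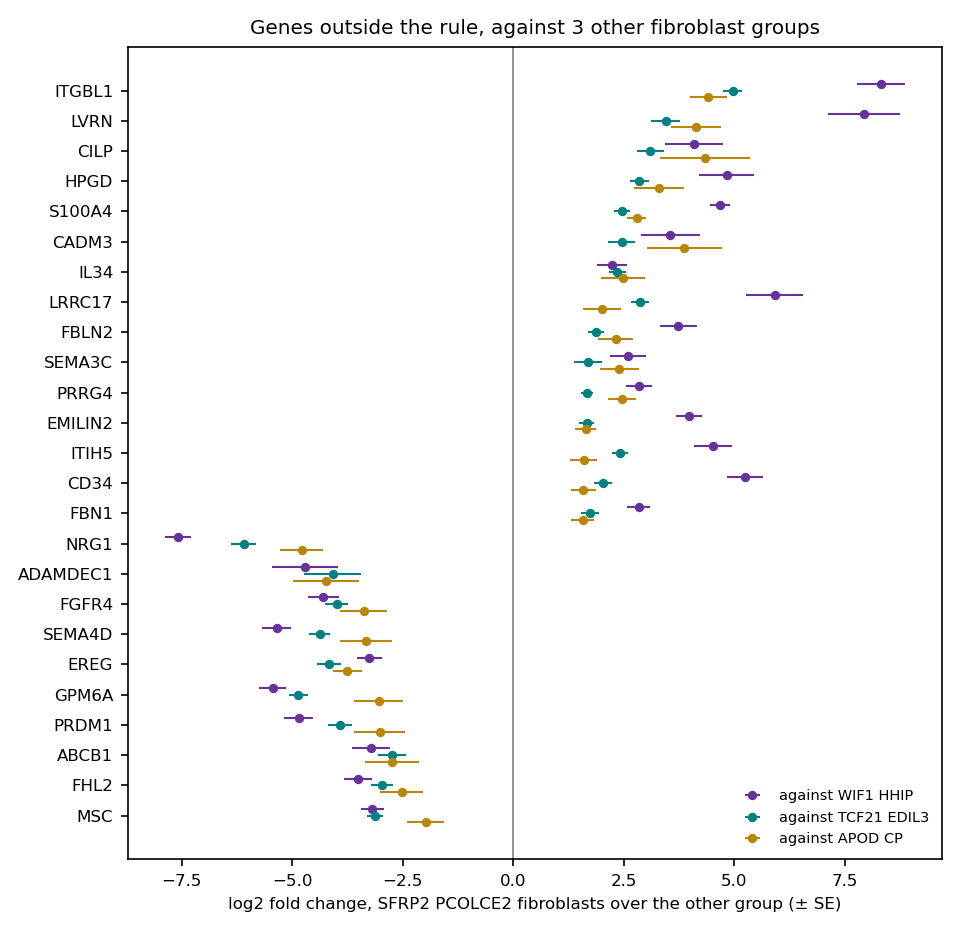
Log2 fold change of SFRP2 PCOLCE2 fibroblasts over each of 3 other fibroblast groups, with the SE of the fit, for the 15 genes outside the rule that were highest and the 10 that were lowest against all 3. ITGBL1 lies between 4.41 and 8.31, and NRG1 between -7.59 and -4.79.

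Of the 26 genes that were lower than in all 3 groups, 10 are named by size. NRG1, a ligand of the ERBB receptors, was at 2.00, 3.62, 0.604 and 0.339 CPM, with means of 527, 117 and 35.4 CPM in the WIF1 HHIP, TCF21 EDIL3 and APOD CP cells. Its log2 differences were -7.59 ± 0.29, -6.10 ± 0.28 and -4.79 ± 0.48 (SE). After thinning, at most 0.487% of the cells had a NRG1 UMI, as did up to 0.51% of PTPRC-positive cells. The NRG1 level here was thus not shown to exceed background, which was not estimated. EREG, another ligand of the same receptor family, had log2 differences of -3.25, -4.16 and -3.76. ADAMDEC1, a metalloprotease of gut and lymphoid stroma, had -4.71, -4.09 and -4.24, and FGFR4, a fibroblast growth factor receptor, had -4.30, -4.00 and -3.39. SEMA4D, GPM6A, the repressor PRDM1, the drug pump ABCB1, FHL2 and the factor MSC (musculin) completed the named set. Up to 62.2% of PTPRC-positive cells had an ABCB1 UMI, up to 34.7% a PRDM1 UMI and up to 29.7% a SEMA4D UMI. For GPM6A, FHL2 and MSC the share was at most 1.93%. The part of free RNA from those cells in these differences was not tested. The counts of genes rest on the libraries: 33 were higher and 7 lower than in all 3 groups without Injury_1, 33 and 19 without Normal_1, and 47 and 17 without Normal_2. ITGBL1, LVRN, S100A4, EMILIN2, FBN1, PRRG4 and FGFR4 passed in every alternative run. IL34 did not pass in 5 of 13, CADM3 in 4 of 13 and CILP in 4 of 12. ABCB1, PRDM1, SEMA4D, FBLN2 and ITIH5 did not pass in 3 of 13. In the alternative where each was weakest, the adjusted p was 0.784 for PRDM1, 0.696 for MSC, 0.671 for ABCB1, 0.589 for FHL2 and 0.276 for NRG1.

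The growth factors and contractile genes were compared with the TCF21 EDIL3 cells, the largest of the 3 groups. The members named in this paragraph and the next were picked after their values had been seen. Of 22 growth factors tested, 12 were lower there and 2 higher, with a median log2 difference of -0.94 against a median of 0.00 for all genes. Of all genes, 8.59% were higher and 9.22% lower in that comparison. IGF1, a growth factor made by fibroblasts, was among those that were higher, at 315 and 235 CPM in injury and 118 and 78.2 CPM in normal samples. PTN (pleiotrophin) was lower, at 13.9 to 24.2 CPM against a mean of 113 CPM. Of the 10 contractile genes 8 were lower than in TCF21 EDIL3 cells and 0 higher, against 9.22% and 8.59% of all genes. ACTA2 (smooth muscle actin) had 74.2, 126, 36.9 and 153 CPM against means of 939 and 515 CPM in WIF1 HHIP and TCF21 EDIL3 cells, and 59.1 CPM in APOD CP cells. Smooth muscle and pericyte markers summed to 81.0 to 169 CPM in these cells and to 219 to 968 CPM in the other DCN LUM cells, and the part of muscle cells or doublets in the difference was not tested.

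WNT genes showed a mixed picture around SFRP2. The ligand WNT2 stood at 155 and 227 CPM in injury and 74.9 and 71.7 CPM in normal samples and was higher than in WIF1 HHIP and TCF21 EDIL3 cells, by 1.60 and 0.60. WNT5A was lower against the same groups, with log2 differences of -4.97 and -2.75, at 0.339 to 2.72 CPM. Of 6 ligands tested, 2 were higher and 2 lower than in TCF21 EDIL3 cells, where 8.59% of all genes were higher and 9.22% lower. Of 4 WNT antagonists outside the rule 0 were higher and 1 (APCDD1) lower than in TCF21 EDIL3 cells. Among 7 receptors 2 were higher and 0 lower in that comparison, and of 4 target genes LEF1 was lower in all 3 and AXIN2 in 2.

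The injury comparison within these cells was made on the 4 sums, with 10504687 and 12142747 UMIs in the injury samples and 1654982 and 5898671 in the normal ones. Of 7506 genes outside the rule, 7 were higher (0.0933%) and 3 were lower (0.04%) at an adjusted p under 0.05, and 760 had an unadjusted p under 0.05. Of all genes, 20.2% had both injury samples above both normal samples and 21.1% had them below. Besides the named genes the calls were KIF26B, a kinesin that was named after its values had been seen, and 2 genes without a symbol, 1 in each direction.

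COCH (cochlin), a secreted matrix protein best known from the inner ear, stood at 240 CPM in Injury_1 and 87.0 CPM in Injury_2, against 0 in Normal_1 and 0.678 CPM in Normal_2. The groups did not overlap (adjusted p = 0.0304). It was carried by 3576 UMIs in injury and 4 in normal samples, a ratio of 298 per UMI sequenced with an exact counting interval of 116 to 1095. That interval pools the samples of a condition and leaves out the spread between samples and between cells. A COCH UMI was found in 392 of 1235 and 245 of 1305 injury cells, while Normal_1 had it in 0 of 295 cells, which allows up to 1.02% of cells with a UMI and sets no limit on cells that express the gene. Of the COCH-positive cells of Injury_1 and Injury_2, 38.0% and 44.5% also had an ADAMTS19 UMI, which 27.6% and 28.7% of all these cells had, and 68.6% and 85.3% a CD34 UMI, which 71.8% and 91.0% of all had. The share with COCH was at most 1.62% among PTPRC-positive cells.

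ADAMTS19, a secreted metalloprotease, stood at 51.2 and 45.3 CPM in injury and 3.02 and 1.02 CPM in normal samples, a log2 fold change of 4.94 ± 0.44 (SE, adjusted p = 0.0247). PRRX1, a homeobox factor of limb and craniofacial mesenchyme that also marks wound fibroblasts, stood at 38.3 and 34.6 CPM against 6.04 and 4.07 CPM, a log2 fold change of 2.97 ± 0.32. EDN1 (endothelin 1, a vasoconstrictor peptide) stood at 24.8 and 20.2 CPM against 2.42 and 1.86 CPM, a log2 fold change of 3.47 ± 0.37. A PRRX1 UMI was found in 23.8% and 22.9% of the injury cells and 2.71% and 2.91% of the normal ones, against at most 0.922% of PTPRC-positive cells. For EDN1 the shares were 6.80% and 7.36% against 1.02% and 0.662%, where PTPRC-positive cells had up to 2.30%. The normal EDN1 level was thus not shown to exceed background, which was not estimated.

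EREG (epiregulin, a ligand of the EGF receptor that urothelium also carries) stood at 41.5 and 20.01 CPM in injury and at 0 and 0.339 CPM in normal samples (adjusted p = 0.0339). It rested on 679 UMIs against 2, a ratio of 113 with an exact counting interval of 31.2 to 937, which leaves out the spread between samples and between cells. The UMIs were in few cells, 5.26% of Injury_1 and 3.52% of Injury_2, whereas 38.4% and 30.6% of the other DCN LUM cells of those samples had one. The part of free RNA from those cells in the EREG of the cells described here was not tested; PTPRC-positive cells had it in 1.31% and 0.447%.

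Of the genes that fell, KAZALD1, a secreted Kazal-type protein with an IGF-binding domain, stood at 1118 and 1075 CPM in the normal samples and at 29.5 and 57.3 CPM in the injury samples. Its log2 fold change was -4.60 ± 0.42 (SE, adjusted p = 0.0247), and the groups did not overlap. A KAZALD1 UMI was present in 96.3% and 97.0% of the normal cells and in 15.4% and 28.0% of the injury cells, where PTPRC-positive cells had 11.98% and 8.76% in normal and 3.24% and 6.15% in injury samples. ENTPD1 (CD39), an enzyme that breaks down extracellular ATP, stood at 99.1 and 73.7 CPM in normal and 13.4 and 18.0 CPM in injury samples, a log2 fold change of -2.38 ± 0.28 (adjusted p = 0.0437).

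**Figure D4:**
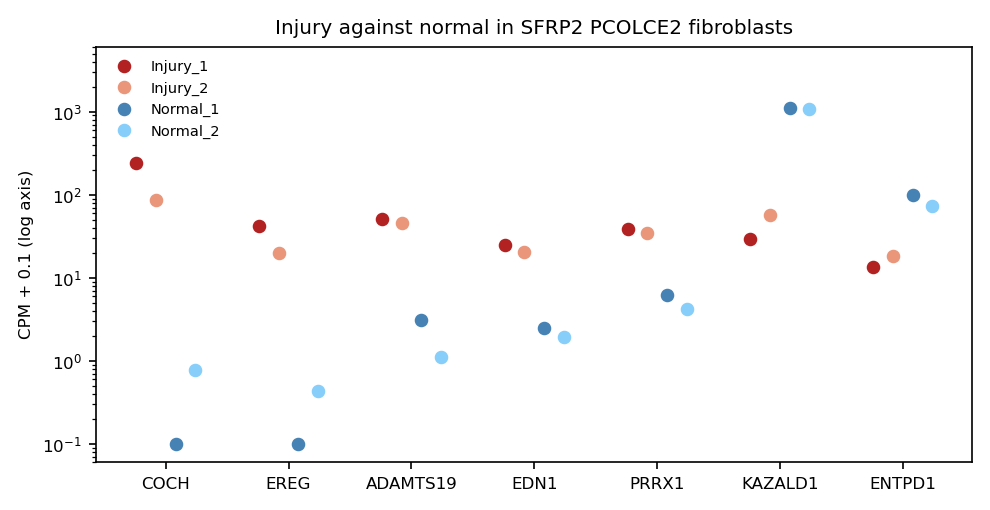
Level of the 7 named genes past the threshold between injury and normal SFRP2 PCOLCE2 fibroblasts, in CPM plus 0.1 on a log axis, 1 point per sample. COCH, EREG, ADAMTS19, EDN1 and PRRX1 lie higher in both injury samples, while KAZALD1 (1118 and 1075 CPM in normal, 29.5 and 57.3 CPM in injury) and ENTPD1 lie lower.

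The number of calls depended on which libraries entered. It was 120 without Injury_1, 163 without Injury_2, 5 without Normal_1 and 22 without Normal_2, with the lone sample of a condition taken to vary like the other condition. Without Normal_1, ADAMTS19 passed and COCH (adjusted p = 0.0884), EREG (0.0946), EDN1 and PRRX1 (0.0631 each), KAZALD1 (0.0584) and ENTPD1 (0.0652) did not, with the direction of each kept. Without Normal_2, COCH (0.0859), EREG (0.0911), EDN1 (0.0723), PRRX1 (0.0582) and ENTPD1 (0.0566) did not pass, and 3 of the 10 calls were among the 22. With at least 3 genes of the own set in each cell COCH (0.0821), EREG (0.101) and ENTPD1 (0.0821) did not pass, and with at most 10% mitochondrial UMIs ENTPD1 (0.0523) did not. ADAMTS19 passed in all 12 alternatives, with an adjusted p of at most 0.0446.

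Apart from the calls above, matrix genes did not pass the test between conditions, and they are given as values. Members named from here to the end of the injury comparison were picked after their values had been seen. COL3A1 stood at 36647 and 52043 CPM in injury and 24146 and 33556 CPM in normal samples (adjusted p = 0.537), while COL1A1 overlapped, with 14395, 18047, 5053 and 16063 CPM. Of 5 fibrillar collagens 3 had both injury samples above both normal samples, and so had 6 of 14 procollagen-processing genes, against 20.2% of all genes. PLOD2, the lysyl hydroxylase of telopeptide cross-links, stood at 151 and 160 CPM against 41.1 and 51.4 CPM (adjusted p = 0.083), and PCOLCE, the relative of PCOLCE2, at 2277 and 2041 CPM against 862 and 1170 CPM. MMP2, a gelatinase, had 1164 and 1243 CPM in injury and 654 and 602 CPM in normal samples (adjusted p = 0.234). Of 16 metalloprotease genes and their inhibitors, 8 had both injury samples above and 2 below, against 20.2% and 21.1% of all genes.

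A list of wound matrix genes held matricellular proteins and others such as FN1, VCAN and HAS2. Of its 19 members tested COCH was the only call, while 12 had both injury samples above both normal samples and 1 below (20.2% and 21.1% of all genes). TNFAIP6, a hyaluronan-binding protein, stood at 1416 and 922 CPM against 145 and 323 CPM (adjusted p = 0.153). A TNFAIP6 UMI was found in 81.5% and 70.3% of the injury cells and in 28.8% and 38.4% of the normal ones. VCAN (versican) stood at 301 and 303 CPM against 112 and 138 CPM, and SPARCL1 at 230 and 279 CPM against 909 and 774 CPM (adjusted p = 0.0839). Of 10 contractile genes 1 had both injury samples above and 3 below (20.2% and 21.1% of all genes), and ACTA2 overlapped.

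Among secreted signals the chemokines CCL2 and CXCL8 stood apart. CCL2, which attracts monocytes, had 1604 and 1283 CPM in injury and 211 and 463 CPM in normal samples (adjusted p = 0.166). CXCL8, which attracts neutrophils, had 1800 and 1212 CPM against 77.3 and 187 CPM (adjusted p = 0.0787). A CXCL8 UMI was found in 62.8% and 46.4% of the injury cells and 6.44% and 15.2% of the normal ones, and in 59.5%, 55.3%, 37.3% and 41.9% of PTPRC-positive cells, and the part of free RNA from those was not tested. Of 7 chemokines tested 5 had both injury samples above and 0 below, with a median log2 fold change of 2.16 against 0.00 for all genes, of which 20.2% lay above and 21.1% below. CCL21 and CXCL5, which are among the 5, had a UMI in at most 3.401% and 0.567% of these cells. Up to 7.86% and 5.93% of PTPRC-positive cells had one, so neither level here was shown to exceed background. Markers of other cells lay on the same side: 4 of 6 urothelial genes tested and 3 of 9 immune genes had both injury samples above and 0 below, with median log2 fold changes of 1.32 and 1.04, and their part in the chemokine values was not tested. TGFB3 stood at 67.6 and 47.7 CPM against 18.1 and 19.8 CPM and INHBA, a subunit of activin, at 90.2 and 43.2 CPM against 32.6 and 20.7 CPM, and of 25 TGF-beta and BMP genes 8 had both injury samples above and 6 below (20.2% and 21.1% of all genes). IGF1 stood apart in the same direction (adjusted p = 0.11), as did IGFBP4 at 345 and 174 CPM against 75.5 and 42.9 CPM (adjusted p = 0.11). Of 23 growth factors EREG was the call, and 7 had both injury samples above and 3 below (20.2% and 21.1% of all genes). LPL, a lipase listed among adipocyte markers, stood at 330 and 161 CPM against 1431 and 1000 CPM (adjusted p = 0.106). LPL belongs to the adipocyte list and made up nearly all of the sums given above, so they are no separate measure of adipocyte RNA. LEP of that list was at 0 in all 4 samples. An ADIPOQ UMI was found in 1.05% and 0.690% of the injury cells, and ADIPOQ was at 0 in Normal_1. The part of adipocyte RNA in the LPL value was not tested. IGFBP5 stood on the other side, with 913 and 1143 CPM against 2508 and 1800 CPM.

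Whether injury acted differently on these cells than on the other DCN LUM cells was asked with an interaction term, again with the sample as a block. Of 8025 genes outside the rule, 11 had a higher injury effect in these cells (0.137%) and 22 a lower one (0.274%), and 644 had an unadjusted p under 0.05. The number of genes that passed was 86 without Injury_1, 280 without Normal_1 and 190 without Normal_2. The other DCN LUM cells comprised the 3 other groups and 1603 cells of none. Their make-up differed between samples: TCF21 EDIL3 cells numbered 310 and 598 in injury and 304 and 852 in normal samples. WIF1 HHIP cells numbered 40 and 55, then 1 and 44. Several genes of the rule also differed between conditions, as given above. A change in which cells entered a group and a change within cells cannot be told apart here. The genes called for injury within the SFRP2 PCOLCE2 fibroblasts were not among those that passed the interaction test. For COCH the difference of the injury effect was 1.87 ± 0.61 (SE, adjusted p = 0.359). COCH stood at 393 and 153 CPM in injury and 5.07 and 2.94 CPM in normal samples of the other cells. KAZALD1 in the other cells stood at 11.4 and 28.0 CPM in injury and 851 and 640 CPM in normal samples (adjusted p of the difference = 0.504), and EREG at 646 and 283 CPM against 0.634 and 0.785 CPM (0.658). Those differences did not pass, which does not show that the groups responded alike.

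Several ligands and receptors had a lower injury effect here. AREG (amphiregulin, an EGF receptor ligand) stood at 1233 and 871 CPM in injury and 190 and 56.1 CPM in normal samples of the other cells, and at 174, 67.1, 123 and 52.2 CPM in these cells. The difference of the injury effect was -2.88 ± 0.31 (SE, adjusted p = 0.00308). In Normal_2, 77.6% of the AREG UMIs of these cells lay in 3 cells. FST (follistatin, which binds activin) stood at 379 and 274 CPM against 45.0 and 27.0 CPM in the other cells and at 96.5 and 49.7 CPM against 41.7 and 28.1 CPM here, a difference of -2.21 ± 0.23. EDNRB, a receptor of endothelin, stood at 146 and 130 CPM against 54.9 and 14.7 CPM in the other cells and at 6.95 and 2.88 CPM against 34.4 and 4.07 CPM here, a difference of -3.68 ± 0.40. BMP5 stood at 62.5 and 92.9 CPM against 74.2 and 70.0 CPM in the other cells and at 9.61 and 6.26 CPM against 44.1 and 23.7 CPM here, a difference of -2.08 ± 0.34.

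MMP1, a collagenase, stood at 184 and 53.4 CPM in injury and 34.6 and 21.6 CPM in normal samples of the other cells, and at 19.7 and 3.62 CPM against 31.4 and 10.3 CPM here, a difference of -2.80 ± 0.29. ITGA2, a collagen-binding integrin chain, and PARM1, a mucin-like membrane protein, stood between 1.81 and 3.39 CPM in all 4 samples of these cells, and at 11.7 to 39.3 CPM in the injury samples of the others. An ITGA2 UMI was found in 1.02% to 1.84% of these cells and a PARM1 UMI in 1.02% to 1.46%. In PTPRC-positive cells the shares were 7.94% to 19.4% and 5.53% to 11.5%. Neither gene was shown to exceed background in these cells, and the level of background was not estimated. TRPA1, an irritant-gated ion channel, stood at 3.62 and 2.96 CPM in injury and 35.6 and 6.27 CPM in normal samples here. P4HA3, a subunit of collagen prolyl hydroxylase, had the opposite sign: 19.7 and 38.3 CPM in injury and 9.67 and 8.14 CPM in normal samples here, against 7.17, 10.2, 14.3 and 12.7 CPM in the other cells, a difference of 2.30 ± 0.28. COL8A1 stood at 24.4 and 53.4 CPM against 9.06 and 16.1 CPM here and overlapped between conditions in the other cells, a difference of 1.86 ± 0.27. FGF9 had a difference of 2.91 ± 0.47, from 7 UMIs in the normal samples of these cells (1 in Normal_1 and 6 in Normal_2).

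**Figure D5:**
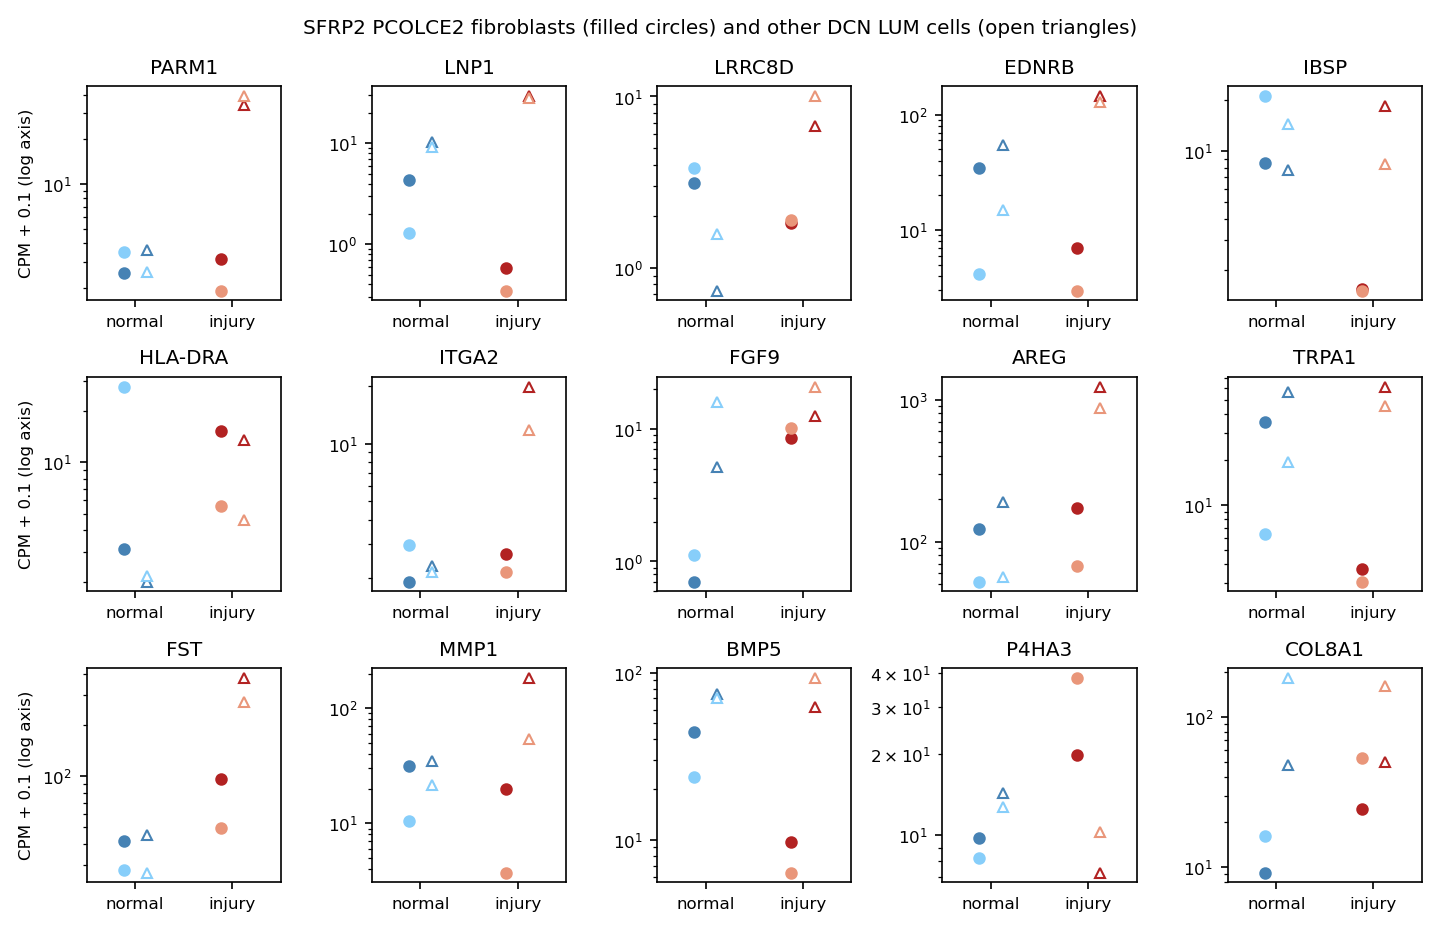
Level of 15 genes whose injury effect differed between SFRP2 PCOLCE2 fibroblasts (filled circles) and the other DCN LUM cells (open triangles), in CPM plus 0.1 on a log axis, with the colours of the other plots (reds Injury_1 and Injury_2, blues Normal_1 and Normal_2). AREG, FST and MMP1 stand higher in both injury samples of the other cells, and FST and P4HA3 do so in the cells described here.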

How the data were processed

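The data are UMI counts per gene and cell barcode, whole numbers without normalization, made by the authors with Cell Ranger 6.0.1 per the file headers and deposited after its selection of barcodes; the genome release is not given in the sources used here. Cells with at least 500 UMIs, 200 genes and at most 15% of UMIs in 13 mitochondrial genes were kept. These limits are those of the study's methods, but the 21945 cells kept here are more than the study reports after its filter. The 2 sets of cells are therefore not the same. No deposited barcode was below 500 UMIs. Counts were summed per sample and group of at least 20 cells and tested in edgeR 4.0.16 (R 4.3.3) with filterByExpr, TMM and the quasi-likelihood test, and p-values were adjusted by Benjamini-Hochberg over all genes kept with a threshold of 0.05. The SE is the log2 fold change divided by the root of F. Shares carry exact 95% binomial intervals. Python 3.11.15, numpy 2.4.6, scipy 1.17.1 and matplotlib 3.10.9 served the rest. No doublet was removed; Scrublet scores from scanpy 1.11.5 served an alternative, and 0.678% to 5.75% of the cells lay among the top 5% of their library. Shares of cells with a UMI are given at full depth unless thinning is named. Thinning to 2000 UMIs left out 1 to 4 of the cells described here per sample. Median depth was 5414 to 9040 UMIs in these cells and 4625 to 5333.5 UMIs in PTPRC-positive cells. Full-depth shares are therefore not matched for depth between conditions or cell groups.

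Symbols were given for 9771 of 18475 features, and the others were tested without a name. The rule for named genes took the largest changes among genes past the threshold with a symbol, and called members of the lists. For injury it took 12 in each direction with samples that did not overlap. Against all 3 groups it took 15 higher and 10 lower. Both needed at least 20 CPM in the higher group, or in the mean of the 3 groups for the lower genes. For the interaction it took 10 with no limit on CPM. Other members are named as picked after their values were seen. The members, lists and tests were chosen with earlier results of these data known. The tests were tried on simulated data. Alternatives were other scaling and filters, DESeq2 1.42.0, stricter cells and rules, thinning, no top doublet scores, the replicate number as a block and each sample left out.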

Additional observations from a re-analysis of the deposited data

Results flagged for a closer look

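The injury effect differed between the SFRP2 PCOLCE2 fibroblasts and the other DCN LUM cells, by the interaction test of edgeR, for 10 named genes. The log2 difference of the effect was -4.18 for PARM1, -4.05 for LNP1, -3.79 for LRRC8D, -3.68 for EDNRB, -3.67 for IBSP, -3.17 for HLA-DRA, -3.08 for ITGA2, 2.91 for FGF9, -2.88 for AREG and -2.88 for TRPA1. AREG, EDNRB, LRRC8D and TRPA1 passed in all 12 alternatives. In at least 1 alternative the adjusted p reached 0.964 for HLA-DRA, 0.505 for IBSP, 0.458 for ITGA2, 0.453 for FGF9, 0.0975 for PARM1 and 0.059 for LNP1.

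Many of these values rest on few UMIs or cells. LNP1 had 5, 3, 7 and 7 UMIs in these cells of Injury_1, Injury_2, Normal_1 and Normal_2. In Normal_1, PARM1 had 4 UMIs in 3 cells, ITGA2 3, LRRC8D 5 and FGF9 1 UMI. ITGA2 and PARM1 were found in a smaller share of these cells than of PTPRC-positive cells in every sample. LRRC8D was found in 18 of 1235, 20 of 1305, 5 of 295 and 20 of 755 of these cells. AREG was found in 277, 138, 141 and 51 of them. The largest share in PTPRC-positive cells was 22.6% for LRRC8D, 51.2% for AREG, 5.82% for EDNRB and 0% for TRPA1. LRRC8D was thus not shown to exceed background, and the part of free RNA in the AREG values was not tested. Of the 163 HLA-DRA UMIs of these cells in Normal_2, 93.9% lay in 3 cells, and so did 64.8% of the 125 IBSP UMIs. HLA-DRA is a gene of antigen-presenting cells, and the immune list summed to 69.3 CPM in Normal_2 and 13.9 CPM in Normal_1, whose part in the result was not tested. With 2 samples in a group no sample could be tested as standing apart.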

How the results depend on the processing

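The direction of the injury difference in shares held in every alternative, from 22.5 to 29.0 percentage points of DCN LUM cells and 9.43 to 15.1 points of all cells when 1 sample was left out. The number of genes called for injury, 10, was 394 without the filter on low counts, 150 with DESeq2, 6 with at least 3 genes of the own set, and 5 to 163 with 1 sample left out. The replicate block gave 166 calls, all 10 among them. Replicate numbers were not taken as pairs, since no label gives them a shared batch and there are only 2; the deviations correlated at 0.173 over 7535 genes. Against all 3 groups, 72 higher and 26 lower became 157 and 54 without the filter and 591 and 640 against all other DCN LUM cells together. The lower count was 50 with DESeq2, 11 with at least 3 genes and 57 with thinned cells. Leaving out 1 sample gave 33 to 51 higher and 7 to 19 lower. The 33 genes of the interaction became 217 without the filter, 66 with at most 10% mitochondrial UMIs, and 48 to 280 with 1 sample left out. The cause of these moves was not tested. Of the values of named genes under the alternatives, 15 of 84 for injury, 44 of 324 against the other groups and 15 of 120 for the interaction no longer passed, and 0 changed sign. With 2 samples a condition, and 295 cells in Normal_1, small differences could not be detected.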

Other observations

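Of all genes tested for injury, 20.2% had both injury samples above both normal samples and 21.1% below. Of 31 mesenchymal transcription factors tested for injury PRRX1 was the call, and 8 had both injury samples above and 8 below both normal samples, near the shares of all genes. Of 16 immediate-early genes, which respond within minutes to handling of cells, 6 had both injury samples above and 0 below. Of 10 cell cycle genes 0 had both injury samples above and 1 below, and of 11 interferon response genes 2 lay above and 0 below. Of 7 complement genes tested against the TCF21 EDIL3 cells, 4 were higher and 0 lower, against 8.59% and 9.22% of all genes.

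ITLN1 (intelectin 1), a lectin listed among mesothelial markers, had a UMI in 30, 79, 16 and 66 cells of Injury_1, Injury_2, Normal_1 and Normal_2. Of these, 100%, 98.7%, 75.0% and 89.4% also had a CD34 UMI. Among all SFRP2 PCOLCE2 fibroblasts, 887 of 1235, 1187 of 1305, 216 of 295 and 645 of 755 had one. The mesothelial markers LRRN4 and CALB2 were at 0 in these cells in all 4 samples. In the cells outside the DCN LUM cells, CALB2 was also at 0 in Injury_1, Injury_2 and Normal_1, and LRRN4 in Normal_2. Their absence here therefore says little.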
